A study of Mus musculus with 32 samples.

Results

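Cytosolic ribosomal proteins build the 2 subunits of the ribosome that translates messenger RNA in the cytoplasm. The genes described here are the protein-coding rows of the count table whose mouse symbol names a large-subunit (Rpl) or small-subunit (Rps) protein, with Rplp1, Rplp2 and Rpsa. Ribosomal S6 kinases and pseudogenes were left out. This gave 47 genes of 27728 in the table (15424 of them protein-coding), 24 of the large and 23 of the small subunit. Other genes of the family are not analysed here. The rule used symbols only and no measured value.

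The study measured RNA from sorted mouse blood progenitors (Lin- cKit+ Sca1-) in 32 libraries, after removal of ribosomal RNA. U2AF1 is the splicing factor that reads the AG at the end of introns, and S34F is its recurrent leukemia-associated substitution. U2af1 itself was not analysed here, so its level could not be set against the genotype labels. Fetal progenitors came from E14.5 liver, were untreated and fell into 5 groups. These were U2af1(flox/flox) without Cre (flox control, n = 3), Vav1-Cre/U2af1(wt/flox) (heterozygous deletion, n = 3), Vav1-Cre/U2af1(flox/flox) (homozygous deletion, n = 3), Vav1-Cre alone (n = 2) and Vav1-Cre/U2af1(wt/S34F) (S34F, n = 4). Vav1-Cre acts in blood cells from fetal life on. The first 3 groups and 1 Vav1-Cre library were batch A, the S34F libraries and the other Vav1-Cre library batch B. Adult progenitors came from bone marrow, and all adult groups carried Mx1-Cre, the rTA activator and the transgene tgU2AF1(WT). The untreated wild type was U2af1(wt/wt) (n = 3). The dosed groups were U2af1(flox/S34F), received pIpC, which switches on Mx1-Cre, and ate chow holding 1250 ppm (n = 4), 2500 ppm (n = 6) or 10000 ppm (n = 4) of doxycycline, which induces the wild-type transgene. Allele, pIpC and doxycycline differ together between dosed and untreated mice and cannot be told apart. Nothing in the labels says that replicates were separate animals, so p-values measure the spread between these libraries.

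Ribosomal proteins are made in near-equal numbers, because each ribosome holds 1 copy of nearly every one. Many of their messenger RNAs begin with a C followed by a run of pyrimidines, the terminal oligopyrimidine (TOP) motif, through which mTORC1 and LARP1 control translation. Blood formation is sensitive to their dose: loss of 1 copy of genes such as RPS19 causes Diamond-Blackfan anemia, in which red-cell precursors fail. Free ribosomal proteins can stabilise p53 by binding MDM2.

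The starts of 35 of the 47 genes were found by symbol among RefSeq promoters (GRCm38.p6). A listed start that was C followed by at least 4 further C or T was present in 8 of these 35 (22.86%), against 2.629% of 17457 other protein-coding genes and 0 of 69 mitochondrial ribosomal protein genes. A run of at least 7 C or T within 20 bases of a start was present in 22 of 35 (62.86%), against 27.26% of the other genes. The letters CCGGAA, a core of ETS-factor sites, occurred on either strand of the 300-base promoter in 21 of 35 (60%), in 20.82% of the other genes and in 57.97% of the mitochondrial ribosomal protein genes. The 8 genes with the tract were Rpl14, Rpl15, Rpl28, Rplp2, Rps15a, Rps18, Rps21 and Rps6. Below are 5 of these starts, to show what the tract looks like, and then the starts of the 3 genes on which the comparisons below turn, none of which has it. Each run is 5′ to 3′ on the gene's own strand, 20 bases upstream and the first 20 transcribed bases. Capitals mark the C and T tract at the start, or the first transcribed base alone where there is no tract.
Rps6: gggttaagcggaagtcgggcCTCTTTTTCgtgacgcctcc
Rpl15: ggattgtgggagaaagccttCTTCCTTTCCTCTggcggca
Rps18: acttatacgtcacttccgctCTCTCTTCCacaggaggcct
Rpl28: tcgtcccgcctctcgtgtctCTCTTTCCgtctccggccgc
Rps21: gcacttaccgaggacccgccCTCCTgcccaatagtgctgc
Rps27l: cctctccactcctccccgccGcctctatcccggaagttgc
Rps2: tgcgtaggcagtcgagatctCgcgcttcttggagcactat
Rpl22l1: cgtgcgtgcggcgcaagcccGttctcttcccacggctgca

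In order, these windows lie at chr4:86857348-86857387 (minus strand), chr14:18270967-18271006 (minus), chr17:33955646-33955685 (minus), chr7:4792945-4792984 (plus), chr2:180257359-180257398 (plus), chr9:66946066-66946105 (plus), chr17:24720043-24720082 (plus) and chr3:28805488-28805527 (plus). Each spans the end of the promoter and the start of the first exon. RefSeq lists a second, downstream start for Rps21 and for Rps27l, without a tract in either case. A start that lies a few bases away from the true one would hide a tract, so these shares describe the annotation.

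Total counts per library ran from 26588099 to 71251200. Kit, the sorting marker, was at 238.7 to 776 normalised counts per 1000000 (CPM) in every library. It was at 238.7 to 324.2 in homozygous deletion, against 484.2 to 571.2 in flox controls. Of the other progenitor markers, Cd34 and Flt3 were also lower there without overlap, Gata2 was higher, and Myb and Runx1 overlapped. Fetal libraries also held hepatocyte RNA: the summed CPM of 10 hepatocyte markers was 94.45 to 567.4 in flox controls, 47.22 to 111.3 in heterozygous and 11.79 to 28.72 in homozygous deletion. The same sum was 14.29 to 41.7 in the adult libraries and so overlapped that of homozygous deletion. In all adult groups Alb, Ttr, Fgb, Fgg and Fga were nevertheless at 0 in every library.

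The 47 genes together took 4.44% to 6.65% of a library's counts. Their mean share was 6.13% ± 0.23 (SD, n = 3) in flox controls, 6.15% ± 0.44 (n = 3) in heterozygous and 6.04% ± 0.19 (n = 3) in homozygous deletion. Vav1-Cre alone gave 6.19% in batch A and 5.59% in batch B, and S34F gave 5.90% ± 0.29 (n = 4). In adult marrow it was 5.01% ± 0.18 (n = 3) in untreated wild type, 5.38% ± 0.23 (n = 4) at 1250 ppm, 5.65% ± 0.57 (n = 6) at 2500 ppm and 5.12% ± 0.74 (n = 4) at 10000 ppm. The flox controls (5.99% to 6.39%) lay above the untreated adults (4.81% to 5.17%), while flox control, heterozygous and homozygous deletion overlapped. The 10000 ppm libraries (4.44% to 6.03%) overlapped every other adult group.

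**Figure D1:**
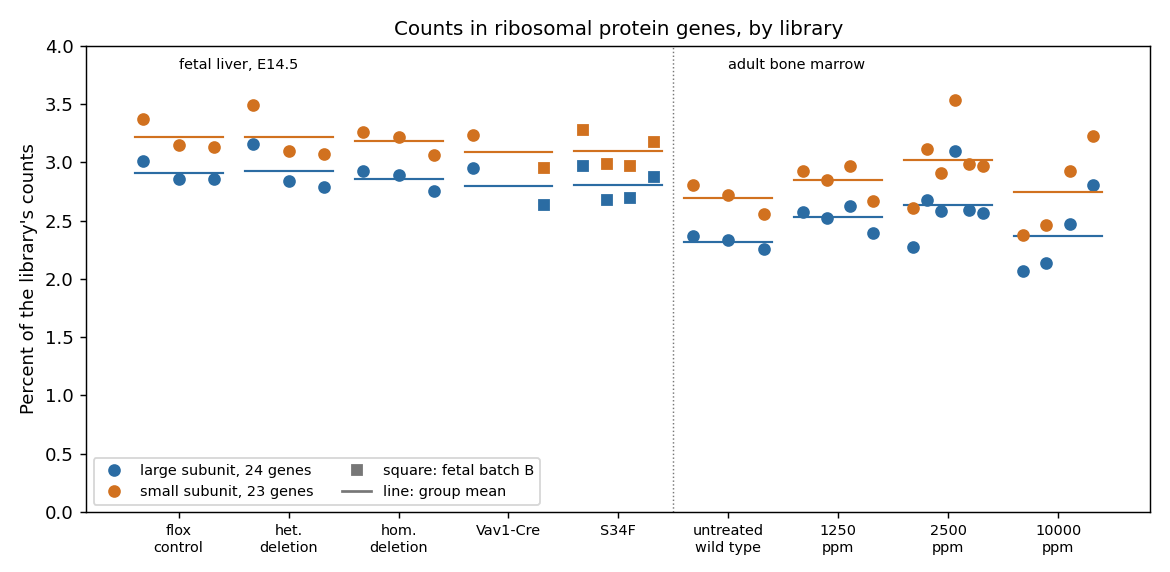
Percent of each library's counts (y axis) in the 24 large-subunit genes (blue) and the 23 small-subunit genes (orange), by group (x axis); each point is a library, squares are fetal batch B and lines are group means. The sum of the small-subunit genes analysed lies above that of the large-subunit genes in every library. The fetal libraries lie mostly above the adult ones.

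The 23 small-subunit genes analysed took more counts than the 24 large-subunit genes in every library. The ratio of large to small was 0.891 to 0.917 over the 15 fetal libraries and 0.842 to 0.897 over the 17 adult ones. Among adults it was 0.842, 0.858 and 0.880 in untreated wild type, 0.881 to 0.897 at 1250 ppm, 0.860 to 0.888 at 2500 ppm and 0.844 to 0.871 at 10000 ppm. The 1250 ppm libraries were above all untreated and all 10000 ppm libraries. In read counts, longer transcripts give more reads, so this ratio does not compare molecules between subunits. It also depends on which genes of each subunit are analysed here, so it does not compare whole subunits.

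Per kilobase of transcript, Rps29 was the highest of the 47 genes (3415 CPM per kilobase, mean of 32 libraries), and Rplp1 (2949), Rps24 (2927) and Rpl8 (2475) were among the 5 highest. Rplp1 belongs to the acidic stalk that recruits elongation factors, and Rps29 to the head of the small subunit. The lowest were Rpl3l (0.190), Rpl39l (1.60), Rps15a (126), Rpl22l1 (192) and Rpl22 (220). Rpl3l is the striated-muscle paralog of Rpl3 and Rpl39l a paralog known from male germ cells. The values of Rps15a and Rps20 (267) depend on the annotated transcript taken for each gene's length. Those taken here are long, 5130 and 3706 bases, so the places of these genes in the ranking are uncertain. In all, 43 genes had a mean of over 10000 counts per library, and the other 4 were the paralogs Rpl3l, Rpl39l, Rpl22l1 and Rps27l.

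**Figure D2:**
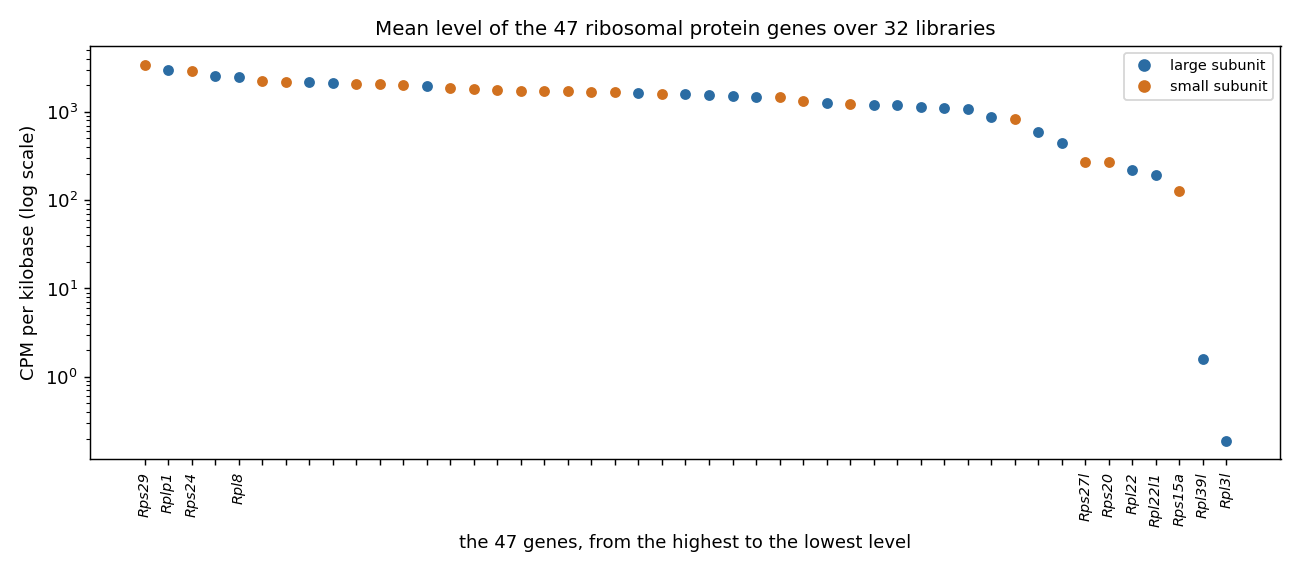
Mean level of each of the 47 genes over 32 libraries in CPM per kilobase of transcript (y axis, log scale), ordered from the highest to the lowest (x axis, named where the text gives a gene's level), with large-subunit genes in blue and small-subunit genes in orange. The levels run from Rps29 (3415) to Rpl3l (0.190), and the paralogs Rps27l, Rpl22l1, Rpl39l and Rpl3l stand in the lower part.

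Across the 32 libraries the members varied little. Their median SD of log2 CPM was 0.19, against 0.54 over the 15165 genes expressed in the set. Rps25, named after its values were seen, is a small-subunit protein used in viral internal initiation. It had the lowest coefficient of variation (7.64%), from 974 ± 96.9 CPM at 10000 ppm (SD, n = 4) to 1109 ± 85.3 at 2500 ppm (n = 6). Leaving out Rpl3l and Rpl39l, the highest was Rps2 (32.2%), a protein of the mRNA entry channel, followed by Rps21 (30.1%) and Rpl21 (27.9%).

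Homozygous deletion of U2af1 left the family close to its control level. With edgeR's quasi-likelihood test (p-values adjusted after Benjamini and Hochberg), 4 of the 47 genes rose against flox control and 0 fell, while 41% of 12678 genes tested were called and 18.5% were called higher. The share of members called (8.51%) was thus below that of all genes. Their median log2 fold change was 0.09, against -0.02 for all genes, and 37 of 47 were positive. This sign is relative to the scaling: unscaled, the family's share of counts was 6.04% in homozygous deletion and 6.13% in flox control, and the mean TMM factors were 0.894 and 0.975. The large-subunit median was 0.10 and the small-subunit median 0.05. Among the 43 genes that are not paralogs, log2 fold changes ran from -0.11 to 0.26.

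Rps27l is a paralog of Rps27 whose human counterpart is a known p53 target. It measured 175, 163 and 164 CPM in the 3 flox controls, 169, 141 and 144 in heterozygous deletion, and 227, 203 and 197 in homozygous deletion. All 3 homozygous libraries were above all 6 others. The rise over flox control was 1.22-fold (log2 0.29 ± 0.07, SE; edgeR quasi-likelihood, Benjamini-Hochberg adjusted p = 0.0102). Over heterozygous deletion it was 1.34-fold (log2 0.42 ± 0.07 SE; edgeR adjusted p = 0.00122). Against flox control the Rps27l call was lost in 4 of 22 settings. Of these, a correction for GC content and length gave log2 0.18 (edgeR adjusted p = 0.115) and the hepatocyte score as a covariate 0.42 (adjusted p = 0.129). The other 2 used a block on the replicate numbers, alone or with that correction, the latter giving the highest adjusted p (0.418). Against heterozygous deletion it held in all 21 settings tried.

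Rpl22l1 and Rpl22 are paralogs, and RPL22 is known to repress Rpl22l1 in other settings. Rpl22l1 measured 76.1, 71.9 and 68.9 CPM in flox controls and 83.7, 109 and 79.7 in homozygous deletion. The groups did not overlap, and 1 library, at 109, stood above the others. The rise was 1.23-fold (log2 0.30 ± 0.10 SE; edgeR adjusted p = 0.0341). Without that library (homozygous deletion 3) the log2 fold change was 0.17 and the edgeR adjusted p 0.0897. Rpl22 measured 391, 361 and 368 CPM against 435, 443 and 414, so these groups did not overlap either. Its rise was 1.13-fold (log2 0.17 ± 0.05 SE; edgeR adjusted p = 0.0234). Rps9, a protein of the small-subunit body, measured 1724, 1574 and 1579 CPM against 2005, 2080 and 1798 (log2 0.24 ± 0.07 SE; edgeR adjusted p = 0.0238). The groups were again separate.

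These counts of calls depended on single libraries. Against flox control, 11 genes were called without flox control 3, 7 without heterozygous deletion 3, and 1 without flox control 4, without flox control 5 or without homozygous deletion 3. With the hepatocyte score as a covariate 0 were called. The homozygous libraries also differed in other cell markers. Their 6 megakaryocyte markers summed to 77.29 to 119.8 CPM, against 181.4 to 260.3 in flox controls. The 6 late erythroid markers summed to 351.6 to 397.5 CPM against 589.3 to 984.8, though Hbb-bt overlapped. The 7 early erythroid markers overlapped in summed CPM (440.9 to 531.9 against 508.6 to 929). Their mean log2 CPM did not overlap (5.19 to 5.59 against 5.74 to 6.76). The summed CPM of 4 B-cell markers was 24.43 to 26.58 against 58.76 to 119.4 in flox controls, and that of 7 macrophage markers 38.45 to 60.68 against 95.66 to 101.3. Of the macrophage markers, Cd5l and Marco were at 0 in 2 homozygous libraries each. Vcam1 alone of the 7 was higher, at 27.35 to 40.24 CPM against 20.62 to 26.37 in flox controls, and made up most of the homozygous sum. The sum of 6 mast-cell and basophil markers was higher, 648.4 to 918.9 against 395.9 to 543.9. Most of it was Hdc (533.2 to 722.3 against 316.3 to 419.7 CPM). Mcpt8, Ms4a2 and Gzmb were also higher without overlap. Cpa3 lay lower with overlap (49.77 to 63.48 against 60.77 to 84.06 CPM), and Fcer1a overlapped. The mean log2 CPM of 6 myeloid granule genes was 9.62 to 10.10 against 8.46 to 9.22. Elane, Ctsg, Ms4a3, Ltf and Camp were higher without overlap (Elane 1498 to 1870 against 822.3 to 1466 CPM), and Mpo, which makes up most of the summed level of 16170 to 18650 against 15030 to 21960, was not. Whether these other cells play a part in the small rises was not tested, and in bulk RNA fewer cells of a type and less RNA per cell cannot be told apart.

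Against heterozygous deletion, 6 of the 47 genes rose with homozygous deletion and 0 fell, where 42.3% of 12678 genes were called and 19.8% were called higher. The members' median log2 fold change was 0.10 against -0.05 for all genes, with 40 positive. This sign too is relative to the scaling. Unscaled, the family's share of counts was 6.04% in homozygous and 6.15% in heterozygous deletion, and the mean TMM factors were 0.894 and 1.007. Besides Rps27l, the genes that rose included Rplp1 (log2 0.29 ± 0.09 SE), Rps2 (0.25 ± 0.08) and Rpl10 (0.20 ± 0.07). Their edgeR adjusted p-values were 0.0197, 0.0233 and 0.0419, and Rpl10 is a large-subunit protein added late in cytoplasmic maturation. Rplp1 measured 1929, 1557 and 1526 CPM in heterozygous and 2130, 2261 and 1942 in homozygous deletion. Rps2 measured 3066, 2573 and 2592 against 3526, 3518 and 3066. Rpl10 measured 1469, 1313 and 1286 against 1686, 1696 and 1471. For Rps2 and Rpl10 the lowest homozygous and the highest heterozygous library almost touched, and heterozygous deletion 3 was the highest of its group in each of the 3 genes. The other 2 called genes, Rps27a, whose product is fused to ubiquitin, and Rps9, had overlapping groups and were named after their values were seen (log2 0.44 ± 0.15 and 0.21 ± 0.07 SE; edgeR adjusted p = 0.0386 and 0.0405). The count was 15 without heterozygous deletion 3, 11 without flox control 3, 3 without flox control 5, 2 without heterozygous deletion 5 or homozygous deletion 2, and 1 without heterozygous deletion 4 or homozygous deletion 3.

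Heterozygous deletion against flox control called 0 of the 47 genes by edgeR's quasi-likelihood test and 0 by DESeq2, where edgeR called 0.0316% of 12678 genes. At an unadjusted p under 0.05 it was 1 of 47 genes against 8.83% of all. That gene was Rps27a, named after its values were seen, at 937, 869 and 893 CPM in flox controls and 761, 528 and 813 in heterozygous deletion (log2 -0.34 ± 0.15 SE; unadjusted p 0.0459, edgeR adjusted p = 0.556). Its lowest library, at 528, lay far from the other 2. The members' median log2 difference was -0.02, and the median SE of the 43 genes that are not paralogs was 0.08, so differences of that order could not be told from the spread of the libraries.

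**Figure D3:**
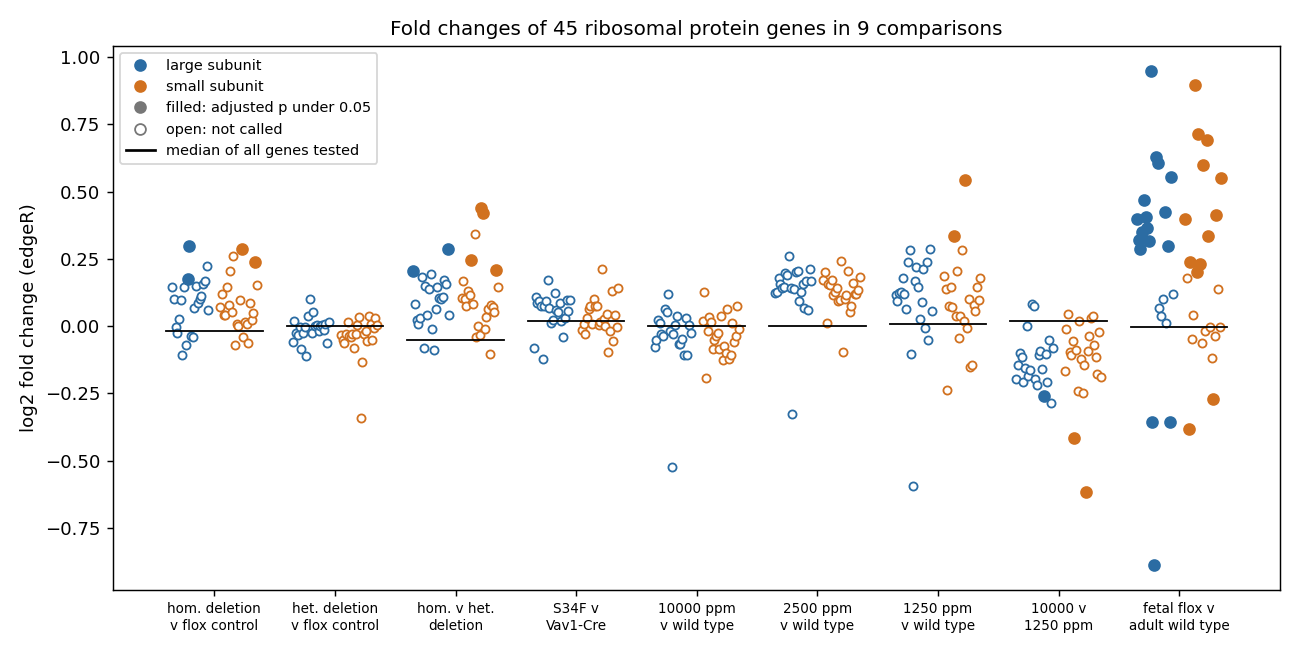
log2 fold changes from edgeR (y axis) of 45 genes, with Rpl3l and Rpl39l left out for their low counts, in 9 comparisons (x axis); blue is large and orange small subunit, filled points had an adjusted p under 0.05 and black lines are the medians of all genes tested. Most genes sit within 0.25 of zero in the genotype and dose comparisons, and the stage comparison on the right has the widest spread, from -0.89 (Rpl22l1) to 0.95 (Rpl21).

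The S34F allele was set against Vav1-Cre with batch in the model, which rests on the single batch B Vav1-Cre library. None of the 47 genes was called by edgeR's quasi-likelihood test (0) or by DESeq2 (0), where edgeR called 0.372% of 13973 genes. At an unadjusted p under 0.05 it was 1 gene (Rpl39l), against 11.4% of all. Among the 43 genes that are not paralogs, log2 differences ran from -0.12 to 0.21 around a median of 0.06. Rps27l measured 126 CPM in the batch B Vav1-Cre library and 132, 126, 123 and 127 in S34F. Rps2 measured 1756 against 1783, 1657, 1738 and 1804. The control value lay inside the S34F range for both. Rpl39l measured 2.26 CPM in the control library and 0.70, 0.32, 0.32 and 1.04 in S34F (log2 -1.85 ± 0.54 SE; edgeR adjusted p = 0.182).

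In adult marrow the family differed little between the dosed groups and untreated wild type. At 10000 ppm 0 of the 47 genes were called by edgeR's quasi-likelihood test and 0 by DESeq2, where edgeR called 1.27% of 13338 genes. At an unadjusted p under 0.05 these were 2, Rpl22l1 and Rpl39l, against 22.3% of all. The median log2 difference was -0.03. At 2500 ppm again 0 were called by either tool, where edgeR called 0.487% of genes. There 10 had an unadjusted p under 0.05, against 15.2% of all, and 44 of 47 log2 differences were positive with a median of 0.14, against 0.00 for all genes. The lowest adjusted p among them was 0.22 (Rps26). Large- and small-subunit medians were 0.15 and 0.13.

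At 1250 ppm 2 genes rose over untreated wild type and 0 fell, where 11.4% of 13338 genes were called and 6.76% were called higher. Rps27l measured 98.0, 100 and 110 CPM in untreated wild type and 161, 138, 145 and 155 at 1250 ppm. All 4 dosed libraries were above all 3 untreated ones. The rise was 1.46-fold (log2 0.54 ± 0.11 SE; edgeR quasi-likelihood, adjusted p = 0.0118). Rps2 measured 1472, 1486 and 1606 CPM against 2049, 1777, 1922 and 1902, a rise of 1.26-fold that stood at the threshold (log2 0.33 ± 0.10 SE; edgeR adjusted p = 0.05 after rounding). Without untreated wild type 1 or 2 neither gene was called (Rps27l log2 0.49 and 0.51, edgeR adjusted p = 0.0671 and 0.0681). The Rps2 call held in 7 of 27 settings: Rps27l alone was called without 10000 ppm 1 or 3, any 1250 ppm library, 2500 ppm 1, 2, 5 or 6, or untreated wild type 3. Rpl22l1 went the other way: it measured 151, 135 and 112 CPM in untreated wild type and 79.1, 102, 86.8 and 82.9 at 1250 ppm, without overlap, and did not pass the test (log2 -0.59 ± 0.20 SE; edgeR adjusted p = 0.0662).

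Between the highest and the lowest dose, which share genotype and pIpC, 3 genes were lower at 10000 ppm and 0 higher, where 18.1% of 13338 genes were called and 10.6% were called lower. Rps27l measured 88.9, 88.5, 107 and 104 CPM at 10000 ppm against 161, 138, 145 and 155 at 1250 ppm. The 6 libraries at 2500 ppm had a lowest, median and highest value of 95.4, 109 and 136. The 10000 and 1250 ppm groups were apart, and the 2500 ppm group overlapped the former only. The difference was 1.53-fold (log2 -0.62 ± 0.10 SE; edgeR adjusted p = 0.00313), and it was called in all 27 settings tried. Rps2 measured 1405, 1209, 1500 and 1604 CPM at 10000 ppm, all below the 4 libraries at 1250 ppm (log2 -0.42 ± 0.10 SE; edgeR adjusted p = 0.00998). Rpl6, a large-subunit protein, measured 1120, 1042, 1197 and 1323 CPM against 1438, 1390, 1425 and 1365. These groups did not overlap either, but the call held in 11 of 27 settings (log2 -0.26 ± 0.07 SE; edgeR adjusted p = 0.0255). Over the 47 genes 39 log2 differences were negative, with a median of -0.11 against 0.02 for all genes. The large-subunit median was -0.15 and the small-subunit median -0.09.

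As a trend per doubling of dose over the 14 dosed libraries, 2 of 46 genes tested fell and 0 rose, where 10.7% of 12849 genes were called and 5.32% were called lower. Rps27l changed by log2 -0.17 ± 0.04 (SE) per doubling and Rps2 by -0.12 ± 0.03 (edgeR adjusted p = 0.0211 and 0.0338). Neither was called without 10000 ppm 1 or 2 or without 1250 ppm 1, 4 or 5, and 1 gene was called without 1250 ppm 3. Markers of other cells were compared at the same doses. The mean log2 CPM of 6 megakaryocyte markers was 2.57 to 4.25 at 10000 ppm and 1.49 to 2.37 at 1250 ppm, without overlap. Their summed CPM overlapped, at 91.1 to 288.8 against 49.97 to 95.75. The erythroid, B-cell and macrophage markers overlapped between these doses by either measure. The summed CPM of 6 late erythroid markers was 136.1 to 822.3 at 10000 ppm and 47.57 to 174.6 at 1250 ppm. That of 4 B-cell markers was 34.74 to 69.87 and 38.24 to 50.63, against 18.43 to 25.40 in untreated wild type. The sum of 7 macrophage markers was 80.24 to 328.7 at 10000 ppm, 140.9 to 186.5 at 1250 ppm and 347.4 to 448.5 in untreated wild type, where Vcam1 alone gave 333.6 to 442.3. Cd5l, C1qa, C1qb and C1qc lay the other way, at most 0.642 CPM in untreated wild type, 1.57 to 24.9 at 1250 ppm and 0.872 to 21.4 at 10000 ppm. Marco was at 0 in 2 untreated libraries, 1 at 1250 ppm and 2 at 10000 ppm. The mean log2 CPM of the 7 was -0.60 to 0.28 in untreated wild type, 1.34 to 3.46 at 1250 ppm and 0.87 to 3.79 at 10000 ppm. The part of these cells in these results was not tested.

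**Figure D4:**
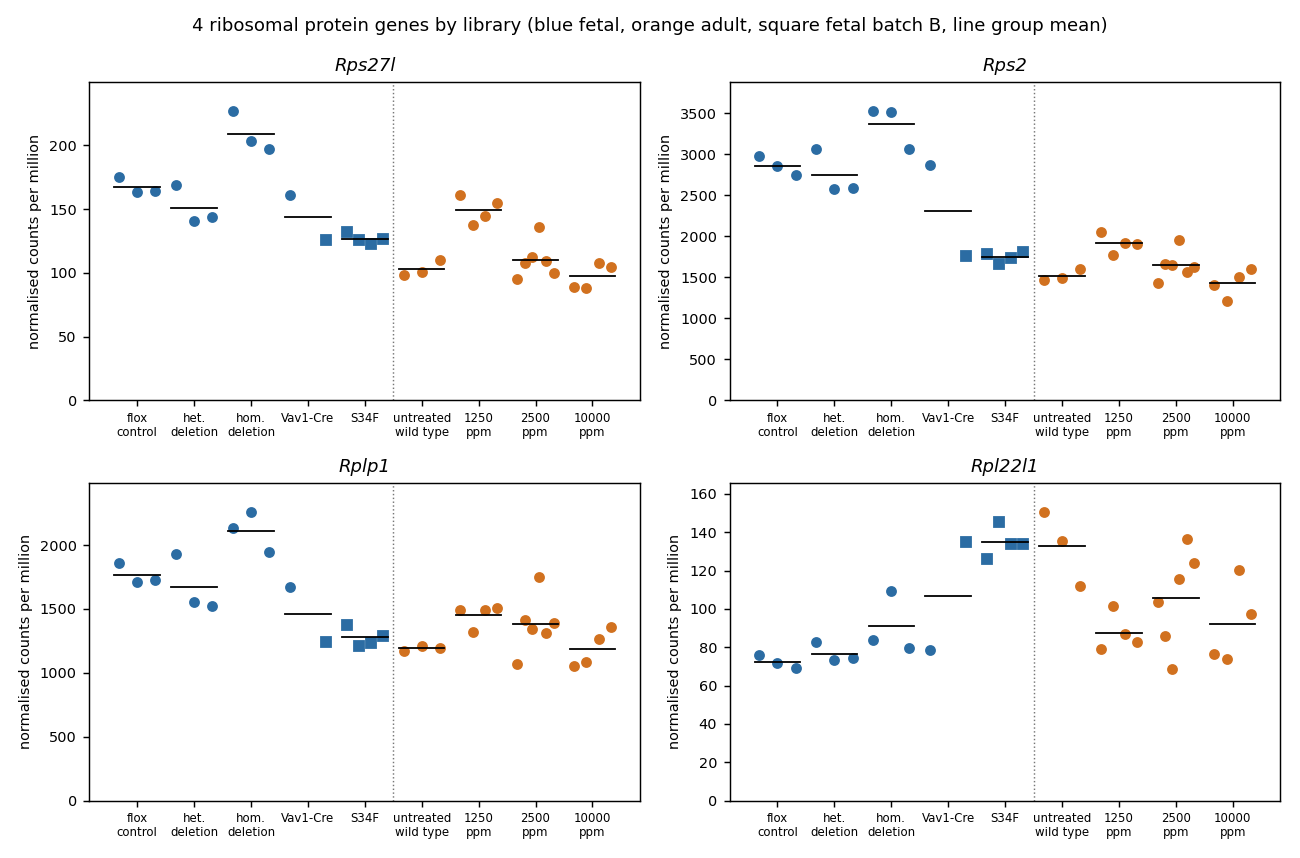
Normalised CPM (y axes, from 0) of Rps27l, Rps2, Rplp1 and Rpl22l1 in each library by group (x axes); blue is fetal, orange adult, squares are fetal batch B and lines are group means. Rps27l is highest in homozygous deletion (197 to 227) and, among adults, at 1250 ppm (138 to 161). In Rps2 and Rpl22l1 the fetal batch B libraries (1657 to 1804 and 126 to 145) lie apart from those of batch A.

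Of the comparisons fitted, fetal flox control against adult untreated wild type (the stage comparison) gave the largest differences. Stage, tissue, alleles and library preparation differ together here and cannot be told apart, and all flox controls were batch A. The test called 30 of the 47 genes (63.8%), 25 higher and 5 lower in the fetal cells. Of 12256 genes 59% were called, 30% higher and 29% lower. The members' median log2 difference was 0.23, against 0.00 for all genes (0.31 for the large and 0.18 for the small subunit). The highest differences were in Rpl21 (1.93-fold), Rps2 (1.86-fold), Rps21 (1.64-fold), Rps27l (1.61-fold) and Rpl27a (1.55-fold). Genes lower in the fetal cells were Rpl22l1 (1.85-fold lower), Rps15a, Rpl9, Rpl22 and Rps4x (1.21- to 1.31-fold lower). With the correction for GC content and length, Rpl22l1 was at log2 -0.37 (edgeR adjusted p = 0.00859) in place of -0.89, and Rps15a was not called (-0.20, adjusted p = 0.14). The Rps4x call held in 10 of 13 settings and was lost without flox control 4 or 5 or untreated wild type 2. RPL21 and RPL27A are core proteins of the large subunit, and Rps4x is the X-linked copy of S4.

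Rpl21 measured 699, 640 and 680 CPM in flox controls and 373, 332 and 332 in untreated adults (log2 0.95 ± 0.07 SE; edgeR adjusted p = 0.00013). Rps2 measured 2980, 2852 and 2746 against 1472, 1486 and 1606 (log2 0.90 ± 0.06 SE; edgeR adjusted p = 0.000116). Rps21 measured 888, 713 and 706 against 479, 483 and 430. In these 3 genes no flox control library overlapped an untreated adult one. Rpl22l1 measured 76.1, 71.9 and 68.9 against 151, 135 and 112 (log2 -0.89 ± 0.11 SE; edgeR adjusted p = 0.000768). Of the 8 genes with a tract at a start, 5 were higher (Rpl14, Rpl15, Rpl28, Rps21 and Rps6), Rps15a was lower, and Rps18 and Rplp2 were not called, with a median log2 difference of 0.41. Of the other 27 with a RefSeq start, 13 were higher and 4 lower, with a median of 0.10. The difference between these classes was not tested.

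The fetal batches differed in many of the same genes, as far as 1 Vav1-Cre library in each can show. The batch B Vav1-Cre library was lower than the batch A one in 38 of 46 genes compared, with a median log2 ratio of -0.32 against -0.07 for all genes. It was at least 1.5-fold lower in 7 members (8.89% of all genes were) and at least 1.5-fold higher in 3 (9.32% of all genes were), with no replicate on either side. Rps2 measured 2865 CPM in batch A and 1756 in batch B, Rpl21 636 and 362, and Rps21 760 and 429. The batch B values were near those of untreated adults. Rpl22l1 measured 78.5 CPM in batch A and 135 in batch B, and again the batch B value was near the adult one. In the comparison of fetal flox control versus adult untreated wild type, with the batch A Vav1-Cre library in place of the flox controls as the only fetal control, 19 of the 47 genes were called (17 higher, 2 lower). With the batch B library 0 were called, Rps2 at log2 0.26 (edgeR adjusted p = 0.139) and Rps27l at 0.34 (0.0896), while 2397 of all genes tested still were. Each of these fits has 1 fetal library, so their counts of calls cannot be set against that of the main fit. The size of the fetal arm is the same in both, and why their counts differ was not tested. The log2 differences carry the comparison: Rps2 was at 0.91 and Rps27l at 0.65 with the batch A library. The family's unscaled share of counts was higher in every batch B library (5.59% to 6.25%) than in any untreated adult (4.81% to 5.17%). TMM factors were 1.13 to 1.18 in batch B and 0.956 to 0.967 in untreated adults. After scaling, the mean log2 CPM of the 43 genes that are not paralogs overlapped, at 9.98 to 10.12 against 10.03 to 10.16. The 2 batches also differed in markers: the 10 hepatocyte markers summed to 132.5 CPM in the batch A and 23.95 in the batch B Vav1-Cre library, and the 6 late erythroid markers to 651.2 and 195.4. Whether batch or cell makeup accounts for any of the stage difference was not tested.

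**Figure D5:**
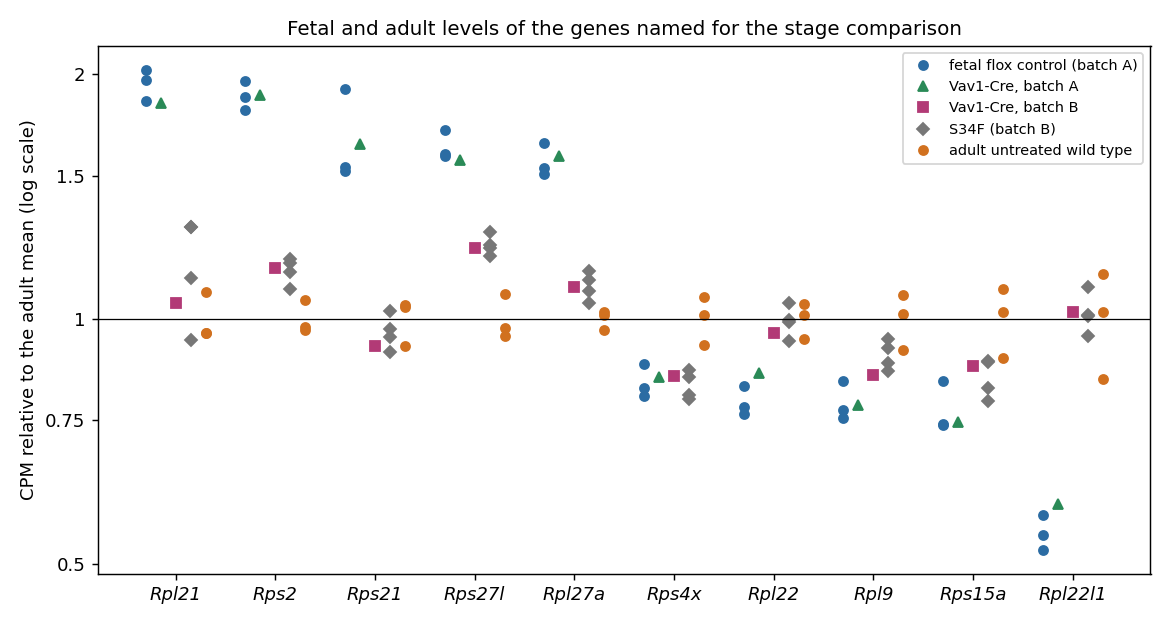
CPM of the 10 genes named for the stage comparison relative to the mean of the 3 adult untreated wild-type libraries (y axis, log scale); each point is a library of the group given in the key. Flox control and batch A Vav1-Cre libraries lie together and away from 1, while for Rpl21, Rps2, Rps21, Rpl27a and Rpl22l1 the batch B Vav1-Cre and S34F libraries lie near the adult level.

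By role, the 6 genes of the Diamond-Blackfan list with a row (Rps19, Rps24, Rps26, Rps29, Rps15a and Rpl15) gave 0 calls in every comparison of genotype or dose. The share of all genes called ran from 0.0316% (heterozygous deletion against flox control) to 42.3% (homozygous against heterozygous deletion) in these comparisons. Rps19, the gene most often affected in that anemia, measured 1005, 939 and 942 CPM in flox controls, 1012, 900 and 865 in heterozygous and 1017, 1148 and 951 in homozygous deletion, and the groups overlapped (log2 0.08 ± 0.07 SE for homozygous against flox, edgeR adjusted p = 0.424). Rps26, which reads mRNA upstream of the start codon, measured 1133, 1172 and 1115 CPM in untreated adults and 1405, 1343, 1425 and 1367 at 1250 ppm. Its groups were separate, but it did not pass the test (log2 0.28 ± 0.10 SE; edgeR adjusted p = 0.0676). In the stage comparison 4 of the 6 were higher, Rps15a was lower, and Rps19 was not called (log2 0.04 ± 0.08 SE). Of all genes, 30% were called higher there and 29% lower.

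The P stalk binds elongation factors, and 3 of its 4 genes had a row: Rplp1, Rplp2 and Rpl12. Rplp1 alone was called among the genotype and dose comparisons, in homozygous against heterozygous deletion, where 42.3% of all genes were called. Against flox control it had log2 0.22 ± 0.09 (SE; edgeR adjusted p = 0.0567), beside 0.06 ± 0.10 for its partner Rplp2 and 0.00 ± 0.07 for Rpl12, and the difference between them was not tested. In the stage comparison Rplp1 (log2 0.56 ± 0.06 SE) and Rpl12 (0.29 ± 0.07) were higher in the fetal cells, and Rplp2 was not called (0.12 ± 0.06; edgeR adjusted p = 0.000378, 0.0118 and 0.135). There 30% of all genes were called higher.

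Of the 4 paralogs with rows, Rpl3l stayed at or under 0.51 CPM in every library, and Rpl39l between 0 and 5.63 CPM, with 0 in 9 adult libraries. Rps27l is therefore the only small-subunit paralog described, at 88.5 to 227 CPM, and Rpl22l1 the only large-subunit paralog above a few CPM, at 68.4 to 151 CPM.

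The other genes of the pathway were read from lists of the machinery that makes and controls ribosomes. Of 30 ribosome biogenesis factors, 8 rose and 1 fell with homozygous deletion against flox control, with a median log2 fold change of 0.15. SBDS, which frees new large subunits from EIF6, rose most clearly (Sbds 64.8 ± 3.8 to 111 ± 7.0 CPM, SD, n = 3 each; log2 0.75 ± 0.07 SE; edgeR adjusted p = 2.94e-05). Nop56, a core protein of the methylation guide complexes, fell (log2 -0.43 ± 0.06 SE; edgeR adjusted p = 0.000328). Of 11 RNA polymerase I genes 4 rose and 1 (Taf1d) fell, and of 14 translation factors of TOP mRNAs 4 rose, among them Btf3 (log2 0.27 ± 0.07 SE), and 0 fell. Of 14 regulators 4 rose and 2 fell, the latter Mtor (log2 -0.32 ± 0.08 SE) and its partner Rptor (-0.36 ± 0.07), with edgeR adjusted p-values of 0.00862 and 0.0017. Fau, whose product is ribosomal protein S30, rose as well (log2 0.21 ± 0.08 SE; edgeR adjusted p = 0.0478). Each of these shares may be read against the 41% of all genes called.

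Between 10000 and 1250 ppm, 12 of 30 biogenesis factors were lower and 0 higher, where 10.6% of all genes were called lower. Their median log2 difference was -0.35, against -0.11 for the cytosolic ribosomal proteins. Bop1, of the large-subunit processing complex, measured 137 ± 16.4 CPM at 10000 ppm and 210 ± 19.8 at 1250 ppm (SD, n = 4 each; log2 -0.62 ± 0.14 SE; edgeR adjusted p = 0.0088). Larp1, the repressor of TOP mRNAs, was lower too (log2 -0.48 ± 0.10 SE; edgeR adjusted p = 0.00634), and Mycn was higher from a low level (8.82 ± 2.49 against 3.05 ± 1.18 CPM; edgeR adjusted p = 0.0103). Of 69 mitochondrial ribosomal proteins, the family that serves the mitochondrial ribosome, 46 were lower and 0 higher, with a median of -0.34. Against flox control, 28 of the 69 rose with homozygous deletion and 0 fell (median 0.17). That is 40.6% called, near the 41% of all genes, of which 18.5% were called higher. In the stage comparison 59 were higher and 1 lower (median 0.54), where 30% of all genes were called higher. The cytosolic family had 4 calls in the homozygous deletion, 3 in the dose and 30 in the stage comparison. The difference between the families was not tested.

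Over the 9 group means of log2 CPM, the mean of the 47 genes ran from 9.36 at 10000 ppm to 9.84 in homozygous deletion. The 5 of 11819 protein-coding genes whose group means followed it most closely were Gpx3 (Pearson's r 0.98), Pabpc1 (0.98), Ciao1 (0.98), Hint1 (0.97) and Golga7 (0.97). These are a description over 9 points, and the mean and the ranking lean on Rpl39l and Rpl3l, whose low counts vary most. Over the 43 genes that are not paralogs the lowest group mean was that of S34F (10.05), beside 10.07 at 10000 ppm, and the highest again that of homozygous deletion (10.45). These means are relative to the scaling, with mean TMM factors of 1.173, 0.999 and 0.894. Unscaled, the family's mean share of counts was 5.90%, 5.12% and 6.04% in these groups.

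Reads shared with copies limit some of these values. GENCODE M21 names 138 pseudogenes after 30 of the members, and 67 of them had rows. The counts of Rpl14-ps1 were 29.8% of those of Rpl14, which is therefore uncertain, and no other member's pseudogene rows exceeded 3.68% of its counts (Rpsa). Small nucleolar RNA genes lie inside 18 members, and 11 overlap another gene on the opposite strand, among them Rps2, Rpl22l1 and Rps27a. Rps27l overlaps no other gene.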

How the data were processed

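Whole-number read counts per gene for 32 libraries were analysed as deposited. Per the series' design text, the authors mapped paired reads with HISAT2 2.1.0 to GRCm38; the counting program and its strand setting are not given in the sources used here. The members and gene lists were chosen with earlier results of these data known. Symbols, coordinates and transcript lengths came from GENCODE M21, sequences from RefSeq (GRCm38.p6).

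Each comparison was fitted across all genes with edgeR 4.0.16 (filterByExpr, TMM factors, quasi-likelihood test, R 4.3.3), calling genes whose Benjamini-Hochberg adjusted p was under 0.05. Models held 9 batch A fetal libraries, all 15 fetal libraries with batch (S34F), all 17 adult libraries, the 14 dosed libraries (log2 dose), or 6 libraries (stage). SE is the log2 fold change over the root of F. CPM values are counts per 1000000 with TMM factors over 32 libraries; log2 CPM used a prior count of 2.

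Named members were the up to 5 called in each direction with the largest change, groups that did not overlap and at least 50 counts on average in the higher group; listed genes were the 3 with the smallest adjusted p. Some genes that these rules would name are not reported here. Alternatives used DESeq2 1.42.0, other scalings and filters, a correction for GC content and length, batch, covariates, blocks and leaving out each library. The test script was tested on simulated data. Replicates of a group differed by more than sampling noise (chi-square per degree of freedom 3.85 to 522.4 over 46 pairs). The main models did not pair libraries by replicate number, and the correlations given below do not settle whether equal numbers pair them.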

Additional observations from a re-analysis of the deposited data

Results flagged for a closer look

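Of 60 groups of 4 or more libraries examined for a library far from the rest, 4 had one, where chance gives about 5%. Rpl39l accounted for 3 of them, all with few counts: 1.31 CPM in 1250 ppm 5 (next 0.103), 2.52 in 2500 ppm 1 (next 0.0694) and 0.221 in 10000 ppm 2 (others 0). Rplp1 was low in 1250 ppm 3, at 1322 CPM, beside 1488 to 1506 in the other 3 libraries. In untreated wild type, a group too small for this check, Rpl39l measured 5.63, 1.70 and 0 CPM.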

How the results depend on the processing

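The numbers of members called were small and moved with the settings. For homozygous deletion against flox control (4 called) the count was 8 with DESeq2, 7 with median-ratio factors, 7 without genes above 1% of a library, 9 with all 15 fetal libraries and batch, 8 with flox control and the batch A Vav1-Cre library pooled, and 0 with the hepatocyte score. Leaving out 1 library gave 1 to 11. Against heterozygous deletion (6) it was 12 with DESeq2, 15 with all 15 libraries and batch, 3 with the hepatocyte score, and 1 to 15 without 1 library. For S34F 1 gene (lower) was called with no filter on low counts. At 1250 ppm against wild type (2) it was 6 with DESeq2, 1 with TMM factors without the members, 1 with no filter, 1 without genes above 1%, 13 with only the compared groups, and 0 to 4 without 1 library (0 without untreated wild type 1 or 2, 4 without 2500 ppm 4). For 10000 against 1250 ppm (3) it was 8 with the GC content and length correction, 1 with only the compared groups, and 2 to 5 without 1 library (5 without 10000 ppm 4 or 2500 ppm 4). The slope (2) gave 4 with DESeq2, 5 with the GC content and length correction and 0 to 3 without 1 library. Stage (30) gave 25 to 28 without 1 library and, in alternatives chosen after seeing the data, 19 and 0 with the batch A and batch B Vav1-Cre library as fetal control; with the latter Rpl22l1 turned to log2 0.076 and Rps21 to -0.063. The latter 2 fits have 1 fetal library each. The cause of these moves was not tested.

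Correlations did not settle whether equal replicate numbers pair the libraries. Deviations of same-numbered libraries correlated at -0.0929 to 0.106 over 7 fetal and -0.217 to 0.462 over 19 adult pairs. Of the libraries with such a partner, 6 of 8 fetal and 7 of 16 adult ones correlated best with their own number. A replicate block gave 2 calls against flox control, 1 at 1250 ppm and 0 for the slope; the block with the GC content and length correction gave 1 higher and 3 lower against flox control, 5 for 10000 against 1250 ppm and 0 for the slope. For homozygous deletion versus flox control: Rps27l, the block gave log2 0.21 (edgeR adjusted p = 0.0557) and the block with that correction 0.07 (adjusted p = 0.418). The stage groups share 1 number, so no block could be fitted there, nor S34F without the batch B Vav1-Cre library.

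The members' median for homozygous deletion against flox control ran from -0.0030 to 0.16 over the settings. Depth was not limiting for 45 members, whose lowest count in a library was 2335; it limits Rpl3l and Rpl39l.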

Other observations

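Rps27a varied more between libraries of a group than any other member outside the 4 paralogs, with an SD of log2 CPM within groups of 0.26. It measured 503 CPM in the batch A and 779 in the batch B Vav1-Cre library, 642 to 1062 at 10000 ppm and 637 to 1121 at 2500 ppm. It overlaps Clhc1 on the opposite strand.

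Library 2500 ppm 4 had the highest share of counts in the family among adults, 6.63%, and 10000 ppm 1 the lowest, 4.44%. In 2500 ppm 4, Rplp1 measured 1748 CPM, beside 1070 to 1415 in the other 5 libraries of its group. The 6 myeloid granule markers had a mean log2 CPM of 10.35 in 2500 ppm 4 and 12.12 in 10000 ppm 1, the lowest of its group and the highest of all 32 libraries.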
